A study of Homo sapiens with 4 samples.

Results

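Aminoacyl-tRNA synthetases are the enzymes that join each amino acid to its transfer RNA. They were described here in KM-H2, an established cell line derived from Hodgkin lymphoma. A gene was a member if its symbol in the platform annotation is an amino acid code followed by ARS, ARS1 or ARS2, with EPRS1, FARSA and FARSB included. The rule found 32 of 19775 named genes, 17 for cytosolic enzymes (no suffix or 1) and 15 for mitochondrial enzymes (suffix 2). MARS1, QARS1 and TARS2 were read only by probe sets that the annotation gives to more than 1 gene, so they were not analysed here. The array data hold 2 groups of 2 arrays. Control cells were transduced with a non-silencing construct. Knockdown cells were transduced with a lentiviral pGIPZ vector, sh.FLJ27352, whose short hairpin RNA is directed at exon 2 sequence of BX648577 within the CIITA-BX648577 fusion transcript. KM-H2 carries that fusion in both groups, and 1 hairpin in 1 line was used. Whether the replicates were separate cultures is not given, so p-values measure the spread between these arrays, which may be technical.

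Each synthetase reads 1 amino acid, activates it with ATP and loads it onto matching tRNAs, and the loaded tRNAs then feed the ribosome. Cytosolic and mitochondrial protein synthesis use separate sets of enzymes encoded by different nuclear genes, with exceptions: KARS1 and GARS1 each encode both the cytosolic and the mitochondrial form. Several cytosolic enzymes sit in the multi-synthetase complex, which is held together by the scaffold proteins AIMP1 and AIMP2 and by EEF1E1. Uncharged tRNA activates the kinase GCN2, and the transcription factor ATF4 is then made. ATF4 is known to activate amino acid transporters, amino acid synthesis enzymes and many cytosolic synthetase genes.

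Levels are deposited linear probe set intensities at the brightest probe set of each gene. A fold change is the mean log2(intensity + 16) of the knockdowns less that of the controls, which understates changes of dim genes. Levels of different genes are not compared, since probe sets differ in their response. Both fits are limma fits over 12922 tested genes with Benjamini-Hochberg adjustment and a threshold of 0.05. The common-prior fit uses 1 prior variance for all genes, and the intensity-trend fit lets it follow brightness. All 32 members passed the filter on dim probe sets, at an intensity of 8.26. The dimmest of them was MARS2 in the controls, with a mean of 15.2. Array means lay between 53.3 and 54.6, and no batch is named in the labels. All 8 markers of Hodgkin cells passed the filter, with summed intensities of 1734 to 1741 in controls and 1721 to 1804 in knockdowns. Within that list the intensity-trend fit, described above, called FSCN1 lower (means 631 and 504, log2 fold change -0.32, adjusted p = 0.0162) and FUT4 higher (75.3 and 104, 0.39, adjusted p = 0.0406). Of 5 T cell markers, 4 were below the filter (CD3E, CD3G, CD2 and CD8A), while CD3D had means of 188 in controls and 239 in knockdowns (0.32, intensity-trend adjusted p = 0.0499), and the list summed to 196 to 208 and 244 to 283. The summed level of 4 fibroblast markers was 126 to 138 in controls and 97.0 to 98.9 in knockdowns, with COL1A2 called lower (54.8 and 35.1, -0.47, intensity-trend adjusted p = 0.0405). For 6 myeloid markers it was 120.4 to 123 and 121 to 122. The 5 B cell markers with a probe set summed to 88.4 to 89.8 and 79.7 to 86.0, and the 2 red cell markers with one to 19.6 to 23.8 and 14.3 to 24.1. Deposited values have a floor of 1, and CD3E, LYZ and S100A9 read 1 on at least 1 array. The part of the markers in the results was not tested.

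At the brightest probe set of each gene the synthetases differed little between control and knockdown cells, and the largest fold change in size was 0.32. Other probe sets of members past the filter ranged from -0.28 (SARS1) to 0.52 (CARS1). GARS1, the glycyl-tRNA synthetase, fell in the intensity-trend fit and was the only member called by it (1 of 32 members, or 3.12%). That fit called 2.99% of all tested genes, so the share of members was near the background. The common-prior fit called 0 of 32 members and 0.0155% of all genes, and its smallest adjusted p among members was 0.273. In simulated data that fit found 0% of changes of 0.3 in size, so its count of 0 says little about changes this small. At an unadjusted p below 0.05, limma's common-prior fit held 4 of the 32 members (3 higher, 1 lower), against 14.1% of all genes. The intensity-trend fit held 12 of the 32, a larger share than its 17.1% of all genes, and this difference was not tested. Over all members 21 fold changes were above 0 and 11 below, with a median of 0.05, and over all tested genes 47.5% were above 0 and 52.5% below, with a median of -0.01. In 12 members both knockdown arrays were higher than both control arrays, in 5 both were lower, and in 15 the groups overlapped. Among all tested genes 47.3% had groups without overlap, 22.7% with both knockdown arrays higher and 24.5% with both lower. With the arrays centred on their medians the intensity-trend fit called 5 members, all higher (HARS1, TARS1, KARS1, FARS2 and IARS2), against 4.74% of all genes. GARS1 then stood at -0.25 (intensity-trend adjusted p = 0.0568). Centring adds the same amount to every gene's fold change, so it moves calls from lower to higher by construction. With quantile normalization GARS1 was again the only member called (-0.32, intensity-trend adjusted p = 0.0311), against 2.69% of all genes.

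**Figure D1:**
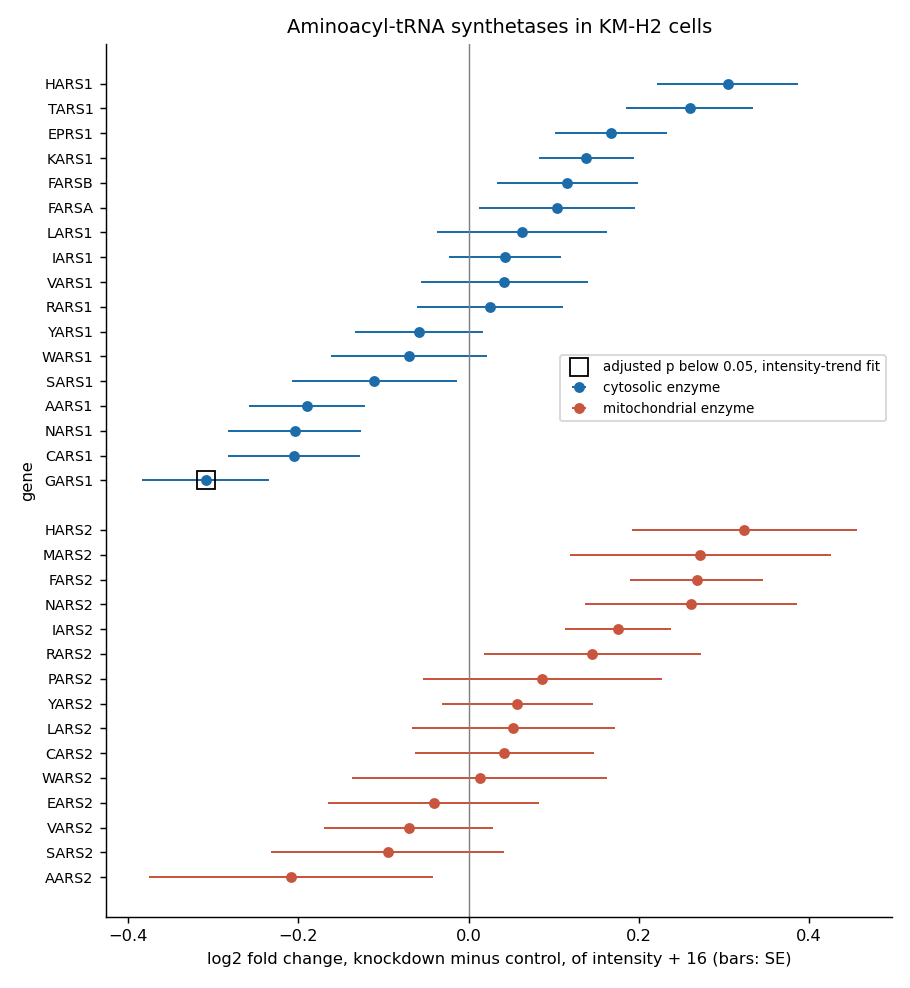
Log2 fold change of each synthetase gene, knockdown minus control, with its standard error from the intensity-trend fit as a bar, for 17 cytosolic and 15 mitochondrial enzymes, 2 arrays per group. The values run from -0.31 (GARS1, boxed as the only call) to 0.32 (HARS2).

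GARS1 read 335 and 352 in control cells and 275 and 273 in knockdown cells. Both knockdown arrays were below both control arrays, and the replicates of each group lay close together. The group means were 343 ± 12.6 and 274 ± 1.69 (SD, n = 2 each), a log2 fold change of -0.31 (SE 0.07, limma intensity-trend fit, adjusted p = 0.0338). The knockdown mean was 79.8% of the control mean. The common-prior fit gave an adjusted p of 0.278. The call was lost with no filter on dim genes (adjusted p = 0.0756), with median centring (0.0568), with all probe sets of a gene averaged (0.112), and when any 1 array was left out. Without control replicate 1, control replicate 2, knockdown replicate 1 and knockdown replicate 2 the adjusted p was 0.0551, 0.131, 0.0822 and 0.166, with fold changes between -0.34 and -0.27. GARS1 has 1 probe set here, of a type whose probes can match more than 1 transcript, and the annotation also lists the pseudogene GARS1P1, so its level is uncertain. GARS1-DT, the non-coding transcript that starts beside GARS1 in the other direction, read 39.5 and 35.7 in controls and 41.3 and 33.8 in knockdowns (adjusted p = 0.993). Its groups overlapped.

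After GARS1, the lowest fold changes of the cytosolic set were those of CARS1, NARS1 and AARS1. None of them passed either fit. CARS1, for cysteine, read 737 and 894 in controls and 725 and 681 in knockdowns (log2 fold change -0.20, SE 0.08, intensity-trend adjusted p = 0.171). Control replicate 2 stood apart there, and control replicate 1 was close to the knockdown arrays. Without control replicate 1, CARS1 was the only member called by the intensity-trend fit (-0.34, adjusted p = 0.0360), and without control replicate 2 its fold change was -0.07. The other CARS1 probe sets past the filter went the other way, with means of 69.3 and 89.1 (0.30) and of 29.9 and 49.8 (0.52), while one below the filter gave -0.24, so its direction depends on the probe set. NARS1, for asparagine, read 331 and 328 in controls and 300.3 and 268 in knockdowns (-0.20, SE 0.08, adjusted p = 0.175). AARS1, for alanine, read 597 and 645 in controls and 526 and 558 in knockdowns (-0.19, SE 0.07, adjusted p = 0.148). For both genes the groups did not overlap, and each has 1 probe set.

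**Figure D2:**
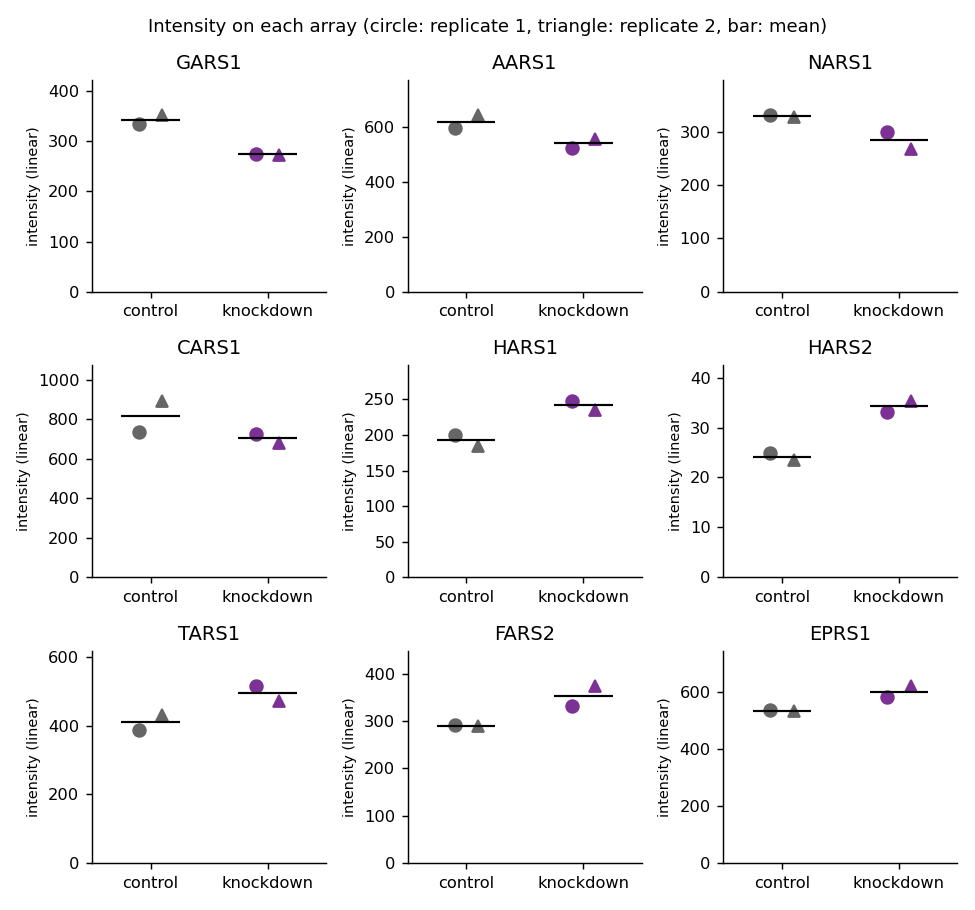
Linear intensity on each of the 4 arrays for 9 synthetase genes, with the group mean as a bar and the axis from 0. Knockdown arrays lie below both control arrays for GARS1, AARS1, NARS1 and CARS1 and above them for HARS1, HARS2, TARS1, FARS2 and EPRS1, and only GARS1 passed the intensity-trend fit.

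Promoter sequence is shown for the synthetase genes in which the letters of the C/EBP-ATF response element were found, because ATF4 is known to bind that composite element. The sequences come from the RefSeq table for GRCh38.p14, which covers 250 bases before to 50 after an annotated start. The table held 27 of the 32 members, 14 cytosolic and 13 mitochondrial, with 36 promoters. The motif TGATGNAAT, searched on both strands, was in the promoters of GARS1 and TARS1, 2 of 27 members, against 1.22% of 27305 genes (0.991% of 35116 promoters). The shorter TGATGNAA, a part of it, was added after the data were seen. It was in 7 of 27 members, 6 cytosolic and 1 mitochondrial, against 4.46% of genes (3.62% of promoters). The form TGATGCAA alone was in 5 of 27, all cytosolic, against 1.08% of genes (0.866% of promoters). A match is a description of the letters and does not show that the factor binds there.

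The 250 bases before the annotated start are shown for GARS1 (chr7:30594628-30594877, plus strand), the only member called, and for AARS1 (chr16:70289507-70289756, minus strand). Both are written 5′ to 3′ on the gene's strand with the match to TGATGNAA, here on the opposite strand, in capitals.
GARS1: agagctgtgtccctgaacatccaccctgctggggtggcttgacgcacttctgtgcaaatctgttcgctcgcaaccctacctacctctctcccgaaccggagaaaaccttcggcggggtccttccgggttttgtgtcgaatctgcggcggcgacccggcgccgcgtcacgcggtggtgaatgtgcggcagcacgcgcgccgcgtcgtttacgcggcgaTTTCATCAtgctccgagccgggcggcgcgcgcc
AARS1: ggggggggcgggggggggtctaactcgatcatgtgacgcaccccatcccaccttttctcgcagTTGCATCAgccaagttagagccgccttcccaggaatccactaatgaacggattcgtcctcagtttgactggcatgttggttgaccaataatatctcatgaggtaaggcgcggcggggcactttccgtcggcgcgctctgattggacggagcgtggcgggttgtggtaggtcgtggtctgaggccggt
The GARS1 match begins 33 bases before the start and that of AARS1 187 bases before it. The other genes with a match are shown as windows of 30 bases with the match in capitals.
CARS1 (chr11:3057407-3057436, minus strand): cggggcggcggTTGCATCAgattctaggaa
NARS1 (chr18:57621804-57621833, minus strand): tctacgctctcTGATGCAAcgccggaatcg
IARS1 (chr9:92293692-92293721, minus strand): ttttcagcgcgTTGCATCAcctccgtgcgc
TARS1 (chr5:33440956-33440985, plus strand): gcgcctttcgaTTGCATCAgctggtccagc
YARS2 (chr12:32756076-32756105, minus strand): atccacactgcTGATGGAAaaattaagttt
The 4 cytosolic genes with the lowest fold changes, GARS1, CARS1, NARS1 and AARS1, each hold the shorter motif. It was also found in TARS1, at 0.26, and in IARS1, at 0.04, so genes with these letters lay on both sides of 0. The shorter motif was in 6 of 14 cytosolic genes and was added after the data were seen. Its match with the lowest genes is therefore not separate evidence. The planned motif was in GARS1, at -0.31, and TARS1, at 0.26.

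Among the other free cytosolic enzymes, HARS1 and TARS1 had the highest fold changes, and neither passed a fit. HARS1, for histidine, read 201 and 185 in controls and 248 and 235 in knockdowns, means of 193 ± 11.0 and 242 ± 9.11 (log2 fold change 0.30, SE 0.08, intensity-trend adjusted p = 0.0548). HARS1 passed under 4 of 14 alternative settings of that fit, all with the same direction. TARS1, for threonine, read 389 and 432 in controls and 515 and 473 in knockdowns (0.26, SE 0.07, adjusted p = 0.0708). The groups did not overlap for either gene. FARSA and FARSB encode the 2 kinds of subunit of the cytosolic phenylalanine enzyme. FARSA read 172 and 149 in controls and 169 and 178 in knockdowns (0.10), with overlap. FARSB read 217 and 197 in controls and 226 and 225 in knockdowns (0.12), without overlap, but its other probe set past the filter had means of 16.5 and 11.9 (-0.22), so its direction depends on the probe set. The intensity-trend adjusted p was 0.622 for FARSA and 0.520 for FARSB.

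At their brightest probe sets the remaining free cytosolic enzymes lay between -0.11 and 0.04, and their groups overlapped. VARS1, for valine, read 97.4 and 108 in controls and 104 and 109 in knockdowns (0.04), and its other probe set had means of 15.3 and 23.8 (0.34). YARS1, for tyrosine, read 305 and 319 in controls and 292 and 306 in knockdowns (-0.06), and its dimmer probe set past the filter gave -0.19. SARS1, for serine and for the tRNA that becomes charged with selenocysteine, read 133 and 156 in controls and 127 and 138 in knockdowns (-0.11), and its dimmer probe set past the filter had means of 36.0 and 27.0 (-0.28). At these dimmer probe sets of VARS1, YARS1 and SARS1 the groups did not overlap. WARS1, for tryptophan, is also known as a gene that interferon gamma induces. It read 149 and 171 in controls and 150 and 153 in knockdowns (-0.07, adjusted p = 0.762), while its other probe set had means of 78.3 and 106 (0.38), so its direction depends on the probe set. Of the fixed list of interferon gamma induced genes 12 were tested, 7 above 0 and 5 below, with a median of 0.04. Either limma fit called 0 of them, and 2 had an unadjusted common-prior p below 0.05, against 14.1% of all genes. GBP1 at -0.33 and CXCL9 at 0.35 had the largest fold changes of that list.

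All 5 measured enzymes of the multi-synthetase complex had fold changes above 0, between 0.03 and 0.17, against 5 of the 12 cytosolic enzymes outside it. None passed either fit, and no test of the difference was made. EPRS1, which joins the glutamate and proline enzymes in 1 protein, read 537 and 533 in controls and 584 and 622 in knockdowns (0.17, SE 0.07, intensity-trend adjusted p = 0.190). Its other probe sets had means of 106 and 156 (0.49) and of 267 and 282 (0.07). KARS1, for lysine, read 1252 and 1257 in controls and 1417 and 1348 in knockdowns (0.14, adjusted p = 0.200), and its other probe set had means of 464 and 551 (0.24). In EPRS1, KARS1 and IARS1 both knockdown arrays were higher than both controls. IARS1, for isoleucine, read 538 and 568 in controls and 570.2 and 569.8 in knockdowns (0.04). LARS1, for leucine, read 113 and 120.5 in controls and 134 and 113 in knockdowns (0.06). RARS1, for arginine, read 198 and 199 in controls and 215 and 190.1 in knockdowns (0.03). The groups overlapped in LARS1 and RARS1, and other LARS1 probe sets gave -0.16, 0.19 and 0.39. AIMP1, the scaffold protein, read 251 and 257 in controls and 280.1 and 276 in knockdowns (0.12, adjusted p = 0.434).

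Mitochondrial enzymes gave 11 fold changes above 0 and 4 below, and none passed either fit. HARS2, for histidine, read 24.9 and 23.5 in controls and 33.2 and 35.4 in knockdowns, means of 24.2 ± 0.983 and 34.3 ± 1.56 (log2 fold change 0.32, SE 0.13, intensity-trend adjusted p = 0.205). HARS1 and HARS2 are neighbours on chromosome 5 and are transcribed away from each other, with HARS1 on the minus strand and HARS2 on the plus strand. Both had fold changes near 0.3 without overlap of the groups, and no other pair of members are neighbours. FARS2, for phenylalanine, read 291 and 290 in controls and 333 and 374 in knockdowns (0.27, SE 0.08, adjusted p = 0.0736). Without knockdown replicate 1, FARS2 was the only member called by the intensity-trend fit (0.35, adjusted p = 0.0418), and without knockdown replicate 2 its fold change was 0.19. Another FARS2 probe set had means of 195 and 180 (-0.11), so its direction depends on the probe set.

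MARS2, for methionine, read 13.0 and 17.4 in controls and 23.1 and 20.1 in knockdowns (0.27, adjusted p = 0.386). NARS2, for asparagine, read 41.3 and 40.6 in controls and 46.4 and 58.6 in knockdowns (0.26, adjusted p = 0.293). IARS2, for isoleucine, read 829 and 868 in controls and 996 and 925 in knockdowns (0.18, adjusted p = 0.144). In these 3 genes both knockdown arrays were higher than both control arrays. RARS2 read 61.5 and 48.0 in controls and 69.7 and 54.9 in knockdowns (0.15), with overlap. YARS2 had means of 138 and 144 (0.06) and PARS2 of 25.1 and 27.5 (0.09). LARS2 had means of 45.1 and 47.4 (0.05), CARS2 of 70.5 and 73.0 (0.04) and WARS2 of 20.5 and 20.8 (0.01). On the other side, AARS2, for alanine, read 21.4 and 16.9 in controls and 18.5 and 10.7 in knockdowns (-0.21, SE 0.17, adjusted p = 0.579). EARS2 had means of 41.4 and 39.7 (-0.04), and its other probe sets past the filter gave -0.13 and 0.21, so its direction depends on the probe set. VARS2 had means of 100.2 and 94.5 (-0.07) and SARS2 had means of 30.2 and 27.3 (-0.10). VARS2 was the only mitochondrial gene with both knockdown arrays below both controls.

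The cytosolic and mitochondrial sets had almost the same middle. The median fold change was 0.04 over the 17 cytosolic genes, with 10 above 0, and 0.06 over the 15 mitochondrial genes, with 11 above 0. The difference of the medians was -0.02 on the log2 scale, less than its spread between replicate arrays (SD 0.06). Cytosolic fold changes ran from -0.31 to 0.30 and mitochondrial ones from -0.21 to 0.32. In 6 cytosolic (35.3%) and 6 mitochondrial genes (40%) both knockdown arrays were higher, against 22.7% of all tested genes. In 4 (23.5%) and 1 (6.67%) both were lower, against 24.5% of all tested genes. With probe sets of single-transcript type only, the cytosolic median was -0.07 over 11 genes and the difference was -0.13, so even the sign of the cytosolic median depends on the choice of probe set. Without knockdown replicate 1 it was -0.03.

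Enzymes for the same amino acid were set side by side in 15 pairs, in which EPRS1 and FARS2 each count under 2. The mitochondrial gene had the higher fold change in 10 pairs and the cytosolic gene in 5, with a median difference of -0.08. Asparagine had the widest gap, with NARS1 at -0.20 and NARS2 at 0.26. It was followed by cysteine (CARS1 -0.20, CARS2 0.04) and glutamate (EPRS1 0.17, EARS2 -0.04). Alanine, histidine, serine and leucine had gaps of 0.02 or less, with both alanine genes below 0 and both histidine genes at 0.3. The added 16 shrinks changes of dim genes more, and for alanine and histidine the mitochondrial gene was dim. In linear intensity the knockdown mean was 87.3% of control for AARS1 and 76.3% for AARS2. It was 125% for HARS1 and 142% for HARS2, so these 2 small gaps depend on the scale. The serine genes (91.6% and 90.4%) and leucine genes (105.3% and 105.1%) were close on both scales. The differences within pairs were not tested.

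**Figure D3:**
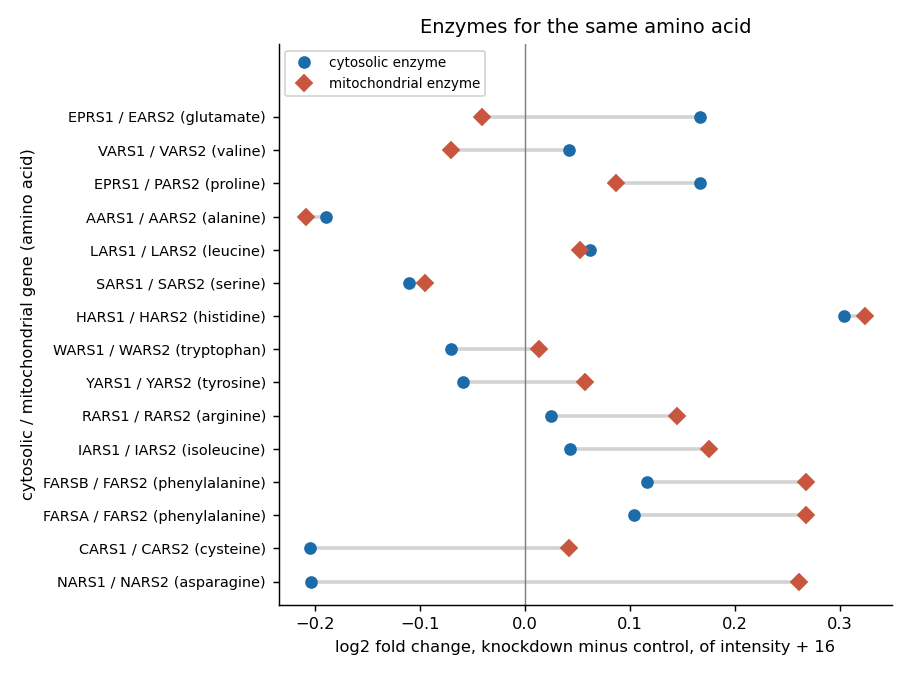
Log2 fold change, knockdown minus control, of the cytosolic (circle) and mitochondrial (diamond) enzyme gene for each amino acid, joined by a line. The widest gap is that of asparagine, with NARS1 at -0.20 and NARS2 at 0.26. The histidine genes lie at 0.30 and 0.32 on this scale, which shrinks changes of dim genes such as HARS2.

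Synthetases fall into class I and class II by the fold of the catalytic domain. At an unadjusted p below 0.05, limma's common-prior fit held 4 of the 15 class II genes (HARS1, HARS2, FARS2 and GARS1) and 0 of the 16 class I genes, against 14.1% of all genes. Its intensity-trend fit held 9 class II and 2 class I genes (CARS1 and IARS2), against 17.1% of all genes. Class II fold changes ran from -0.31 to 0.32 and class I from -0.20 to 0.27, with medians of 0.10 and 0.04. EPRS1 belongs to both classes and was left out of this count. No test of the classes was made.

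Factors that work beside the synthetases were not called. Of 14 genes fixed for this list 11 were tested, 5 above 0 and 6 below, with a median of -0.03. Limma called 0 in either fit, and 0 had an unadjusted common-prior p below 0.05, against 14.1% of all genes. TARS3, a cytosolic relative of TARS1 outside the symbol rule, read 73.8 and 71.4 in controls and 55.4 and 62.5 in knockdowns (-0.24, intensity-trend adjusted p = 0.260). DTD2, which removes D-amino acids and other wrong residues from tRNA, read 33.4 and 37.0 in controls and 47.2 and 40.0 in knockdowns (0.22, adjusted p = 0.399). Of the GCN2 and eIF2 alpha regulators 8 of 9 were tested, with a median of 0.04 and 0 called in either limma fit. At an unadjusted common-prior p below 0.05 there were 0, against 14.1% of all genes. EIF2AK4, which encodes GCN2, had means of 57.6 and 60.4 (0.06). EIF2S1, the eIF2 alpha subunit, gave 0.15 and GCN1 -0.12.

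Genes of the amino acid response, most of them ATF4 targets, were described beside the synthetases, and the difference between the lists was not tested. Of 34 listed genes 29 were tested, with 9 above 0 and 20 below, a median of -0.12, and 0 higher and 4 lower in the intensity-trend fit, against 1.59% and 1.4% of all genes. The common-prior fit called 0 of them, and 7 had an unadjusted p below 0.05 in it, against 14.1% of all genes. ATF4 itself read 647 and 784 in controls and 537 and 450.2 in knockdowns (-0.52, intensity-trend adjusted p = 0.00482). SLC7A11, a cystine transporter subunit, read 44.1 and 63.2 in controls and 26.9 and 30.6 in knockdowns (-0.62, adjusted p = 0.0244). SLC38A2, a neutral amino acid transporter, read 388 and 449.5 in controls and 308 and 343 in knockdowns (-0.35, adjusted p = 0.0319). ASNS, asparagine synthetase, read 526 and 486 in controls and 421 and 382 in knockdowns (-0.32, adjusted p = 0.0262). In these 4 genes, as in GARS1, both knockdown arrays were below both controls. The highest fold change of the list was that of CBS, an enzyme of cysteine synthesis, at 1.15. It rested on knockdown replicate 2, which read 94.0 against 2.23 to 5.49 on the other arrays. TRIB3, an inhibitor of ATF4 activity, followed at 0.29, SLC1A5, a neutral amino acid transporter, at 0.25 and SHMT2, a mitochondrial serine enzyme, at 0.18. In these 3 genes both knockdown arrays were higher than both controls, and neither fit called them or CBS.

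The control arrays differed between themselves in this list. Per-array medians of the deviation from each gene's mean were -0.03 and 0.14 for the controls and -0.06 and -0.01 for the knockdowns. Control replicate 2 was thus the high array, and control replicate 1 was close to the knockdowns. For the cytosolic synthetases the same medians were -0.05 and 0.02 for the controls and 0.02 and 0.00 for the knockdowns. Of the 17 cytosolic genes 12 were higher on control replicate 2 than on control replicate 1. Among them were CARS1, AARS1 and GARS1, with fold changes below 0, and TARS1, with one above 0. Of the 15 mitochondrial genes 4 were higher on control replicate 2 and 11 on control replicate 1. Over all tested genes the median log2 difference of control replicate 1 minus control replicate 2 was 0.02. Without control replicate 2, the intensity-trend fit called none of the 4 response genes (ATF4 -0.38, adjusted p = 0.0702, SLC7A11 -0.42, 0.154, SLC38A2 -0.24, 0.188, and ASNS -0.38, 0.0526), all still below 0. SLC38A2 was also lost without knockdown replicate 1 (adjusted p = 0.136), and ASNS without control replicate 1 (0.114) and knockdown replicate 2 (0.219). Without control replicate 2, AARS1 stood at -0.14 and NARS1 at -0.21.

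**Figure D4:**
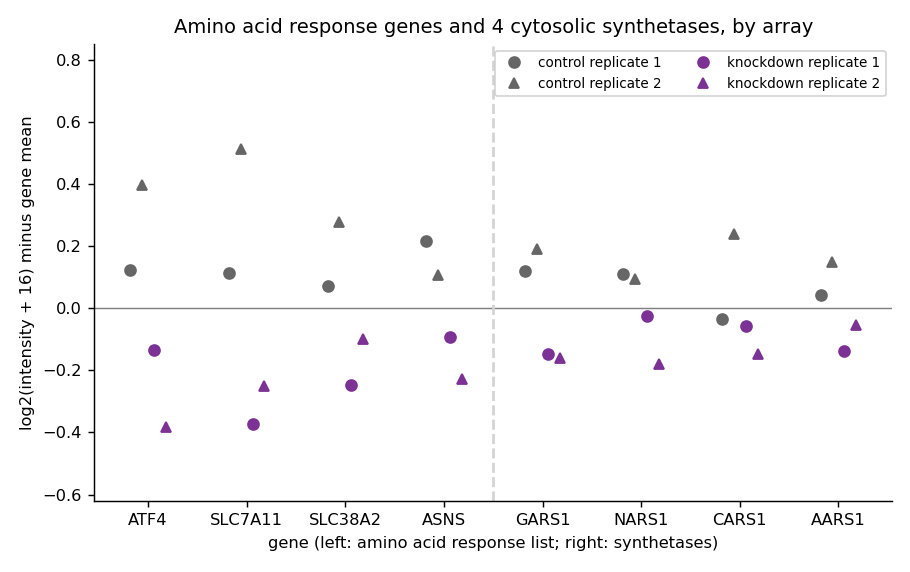
Deviation of log2(intensity + 16) from the gene's mean over the 4 arrays, for 4 amino acid response genes called lower by the intensity-trend fit (left) and the 4 cytosolic synthetases with the lowest fold changes (right). Knockdown arrays lie below both controls for each gene, and control replicate 2 is the highest array for 6 of the 8.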

How the data were processed

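The authors deposited linear intensities of 54613 probe sets on each of 4 arrays. Per the labels' protocols, total RNA was labelled by the standard Affymetrix single-cycle method. How scans became intensities was not given in the sources used here. Means of the arrays are nearly equal, and the lowest values sit at a floor of 1 except for 2 values below it on knockdown replicate 2. The number of arrays limits the precision.

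Probe sets were named from the platform annotation. Of these, 41091 had 1 gene, 1801 had several and 11721 had none. Values were turned into log2(intensity + 16). Each gene took its brightest probe set, and those with a mean log2 value under 4.60, the middle of all probe sets, were left out. The groups were compared with limma 3.58.1 in R 4.3.3. Replicate numbers are shared by the groups but were not used as a block. The scripts were tested on simulated data, in which 200 of 12922 genes were changed. For changes of 0.3 and 0.5 the common-prior fit found 0% and 4.8%, and the intensity-trend fit 22% and 72.4%.

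The members, gene lists and tests were chosen with earlier results of these data known. All members are named. From each pathway list the genes past either fit, or otherwise the 2 with the largest fold change, are named, and of the markers those past either fit and those below the filter in the T cell list. Exceptions chosen after their values were seen are AIMP1, EIF2AK4, CBS, TRIB3, SLC1A5, SHMT2 and GARS1-DT. The motif searches are descriptions only: TGATGNAAT was planned, and its shorter forms and the nuclear respiratory factor motif were added after the data were seen.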

Additional observations from a re-analysis of the deposited data

How the results depend on the processing

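The limma common-prior fit called 0 members under 15 of 16 alternatives, and 2 (GARS1 lower, HARS1 higher) with a pseudocount of 64. The intensity-trend fit called 1 member, and the share of all tested genes called is given in brackets (2.99%). It called 2 with the filter at the 75th percentile (5.62%) and 2 with robust hyperparameters (3.39%). It called 4 at a threshold of 0.10 (5.54%) and 5 with median centring (4.74%). It called 0 with no filter (0.42%) and 0 with all probe sets of a gene averaged (0.20%). With probe sets of single-transcript type only, which drops GARS1, it called 0 (1.56%). At a threshold of 0.01 it called 0 (0.63%). In the intensity-trend fit, the settings above with 0 members called had shares of at most 1.56%. At larger shares its member counts did not rise in step with the share. With single arrays left out it called 0 to 1, and GARS1 was not among those called. The cytosolic median was 0.10 with median centring and -0.0705 with single-transcript probe sets, and -0.0253 to 0.0432 with single arrays left out. The mitochondrial median was 0.11 with median centring and 0.0866 with probe sets averaged, and 0.0278 to 0.0862 with single arrays left out. The difference of medians was -0.13 with single-transcript probe sets and -0.0844 to -0.00070 with single arrays left out. It was below 0 under all 14 alternatives run, but these share the same arrays. Median centring and the replicate block leave it unchanged by construction (-0.0151), as does no filter, since all members pass the filter. The shared sign is therefore not separate evidence of a difference. Median centring moves the median of all genes from -0.01 to 0.05. The cause of these shifts was not tested. The alternatives for GARS1 and HARS1 alone were followed after their values were seen.

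Arrays with the same replicate number did not deviate together (correlation of deviations -0.01 across genes). When replicate number entered the model as a block, the intensity-trend fit called 7 members, 4 higher (FARS2, HARS1, IARS2 and TARS1) and 3 lower (AARS1, CARS1 and GARS1), and 7.82% of all genes.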

Other observations

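The palindromic motif of nuclear respiratory factor 1, searched on either strand with 1 position left free, was found in the promoters of 6 of 27 members with a RefSeq promoter, 3 cytosolic (SARS1, FARSB and TARS1) and 3 mitochondrial (PARS2, IARS2 and MARS2). It was found in 6.98% of 27305 genes (5.78% of 35116 promoters). TARS1 thus holds both this motif and the C/EBP-ATF motif. The MARS2 promoter holds it at 2 places. One of them is shown with the motif in capitals.
MARS2 (chr2:197705332-197705361, plus strand): cgacccggctGCGCATGCGCctctcacacg
The fold changes of the 6 genes ran from -0.11 (SARS1) to 0.27 (MARS2), and no test was made.

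Of the antisense transcripts named after a synthetase gene, WARS2-AS1 passed the filter on dim probe sets. It read 11.6 and 14.3 in controls and 5.79 and 9.38 in knockdowns (log2 fold change -0.30, limma intensity-trend adjusted p = 0.413). CARS1-AS1, FARS2-AS1 and NARS2-AS1 were below the filter.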
